A study of Mus musculus with 12 samples.

Results

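Gene expression was compared between the anterior and the posterior parts of mouse embryos that lacked Lhx1 in the epiblast, to describe which regional differences exist without it. The 6 arrays were taken by their labels from the 12 arrays of the series, 3 from anterior and 3 from posterior tissue of Lhx1epiCKO embryos. The Lhx1epiCKO genotype is Lhx1-/flox; Meox2+/Cre, and the control genotype, with 3 anterior and 3 posterior arrays of its own, is Lhx1+/flox; Meox2+/Cre. All groups were taken at E7.75, in days of embryonic development, from the early bud to the early head-fold stage, and all carry the Meox2+/Cre allele and 1 flox allele. Cre from the Meox2 locus acts in the epiblast and the tissues that derive from it. The Lhx1- allele is present in every tissue of the Lhx1epiCKO embryos, so their extraembryonic tissue differs from that of controls as well. Each array held RNA pooled from 5 embryo parts, and the labels name the 3 pools of a group biological replicates. Values are the authors' normalized log2 intensities, on which 1 unit is a doubling of signal.

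LHX1, a homeodomain protein with LIM domains, acts in the anterior mesendoderm, node and nascent mesoderm, and mouse embryos without it lose the head. At the head-fold stage the posterior of the embryo holds the primitive streak, where WNT and FGF ligands and T-box and CDX transcription factors act in the formation of mesoderm and the extension of the trunk. The anterior holds the neural plate of the future brain, the heart-forming mesoderm and the anterior mesendoderm, which secretes antagonists of WNT, BMP and NODAL signalling. In RNA from whole tissue, fewer cells of a type and less RNA per cell cannot be told apart.

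The single Lhx1 probe read 6.84, 6.65 and 7.09 in the anterior Lhx1epiCKO pools and 6.85, 7.18 and 7.30 in the posterior ones. The 2 regions overlapped, and the probe was above background on 2 of 3 arrays in each. In controls it read 8.13, 8.25 and 8.44 in anterior pools and 8.54, 6.90 and 8.35 in posterior pools, so the second array labelled posterior control lay at the Lhx1epiCKO level, against its label. Whether the probe reads the floxed sequence was not known, so its level is a limited check of the labels. Among the 15299 probes kept, 778 lay more than 1 log2 unit from the other arrays of their group on posterior Lhx1epiCKO replicate 3, 640 of them lower. The same number was 257 (232 of them higher) and 279 (258 higher) on posterior Lhx1epiCKO replicates 1 and 2. The mean that these were set against includes replicate 3. On any other array the number was at most 35. Arrays of Lhx1epiCKO embryos detected from 15416 to 16091 probes in anterior pools and from 14243 to 14667 in posterior pools. Where leaving out posterior Lhx1epiCKO replicate 3 or the library labelled posterior control replicate 2 changed a call or count described here, the value without it is given for the main results.

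Within Lhx1epiCKO embryos, 70 probes of 66 genes were higher in the anterior pools and 145 probes of 124 genes were higher in the posterior pools. These calls were 0.458% and 0.948% of the 15299 probes tested, at a Benjamini-Hochberg adjusted p under 0.05 in limma's moderated test. A further count without adjustment, at p under 0.05, was 1946 of the 15299 probes in both directions. That threshold lets a share of 0.05 pass where nothing differs. On all 215 called probes the anterior and posterior arrays did not overlap. The calls were chosen for a large difference beside the spread, so this adds no support to them. Called differences ran from 0.44 to 2.48 on the log2 scale toward the anterior and from 0.41 to 2.92 toward the posterior, and 19 anterior and 49 posterior calls were at least 1 log2 unit. The median difference over all probes was 0.01. Fitting the 6 Lhx1epiCKO arrays alone called 14 anterior and 50 posterior probes. The same fit without posterior replicate 3, chosen after seeing the data, called 101 and 146. Leaving out posterior Lhx1epiCKO replicate 3 raised the counts to 182 anterior and 201 posterior, with 68 and 142 of the original calls among them. Leaving out anterior Lhx1epiCKO replicate 1, 2 or 3 lowered them to 20 and 75, 31 and 91, and 37 and 104, and leaving out posterior Lhx1epiCKO replicate 1 raised them to 127 and 189. When any 1 of the 12 arrays was left out, 19 anterior and 74 posterior probes were called every time. The p-values set a difference against the spread between pools of the same group, shared over all 12 arrays of both genotypes.

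**Figure D1:**
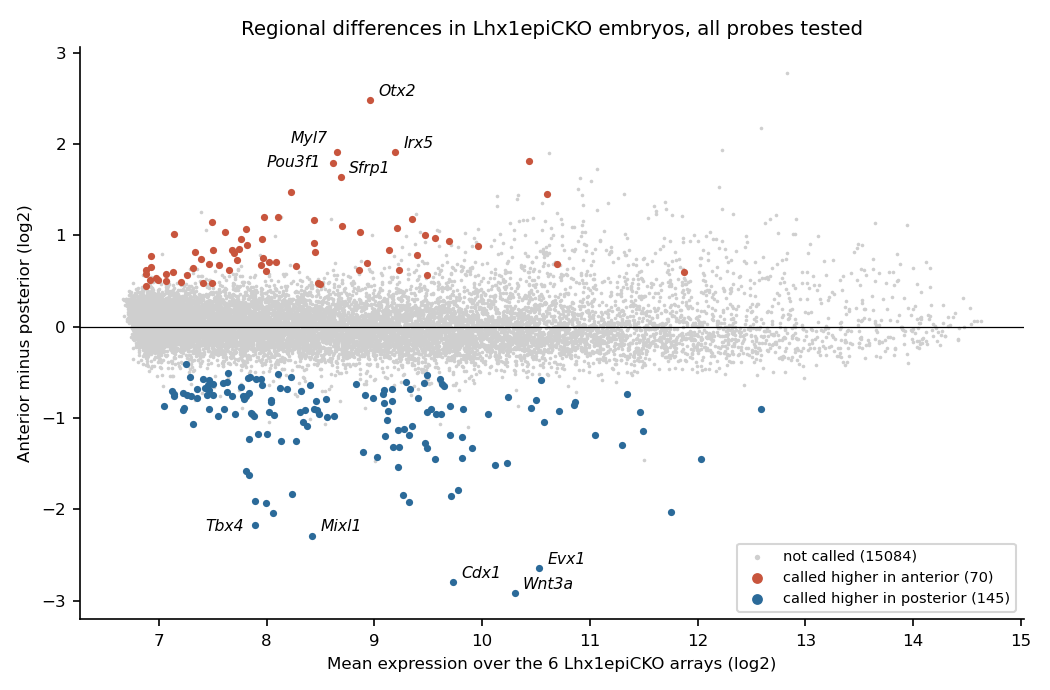
Anterior minus posterior difference (log2) of each probe tested, against its mean level over the 6 Lhx1epiCKO arrays (log2). Red points are the 70 probes called higher in anterior pools, blue points the 145 called higher in posterior pools, and grey points were not called; the differences called toward the posterior reach -2.92 and those toward the anterior 2.48.

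The largest regional differences in Lhx1epiCKO embryos belonged to genes of the primitive streak and caudal stem zone. Of 25 measured genes of this list, 15 were higher in posterior pools and 0 in anterior pools, with a list median of -1.19 (anterior minus posterior, log2) beside 0.01 for all probes. Wnt3a, a secreted WNT ligand of the streak needed for posterior mesoderm, read 8.11, 8.49 and 9.92 in the anterior pools and 11.72, 11.82 and 11.73 in the posterior pools. Every posterior pool was higher than every anterior pool, and anterior replicate 3 lay nearest to them. The posterior level was 7.54-fold the anterior one, a log2 difference of -2.92 ± 0.33 (SE, n = 3 and 3; limma adjusted p = 6.21e-04). This SE, like the others given, comes from the spread shared by all 12 arrays and not from these pools alone. Cdx1 and Cdx2 encode caudal homeobox factors that pattern the trunk. Cdx1 read 7.87, 8.47 and 8.67 against 10.91, 10.89 and 11.60, a 6.94-fold difference (adjusted p = 4.14e-04, limma). Cdx2 was brighter in both regions, at 10.40, 10.71 and 11.11 in anterior and 12.98, 12.50 and 12.83 in posterior pools, and differed 4.08-fold (adjusted p = 6.65e-04, limma). Cdx4, the third caudal factor, was low in anterior pools, at 6.83, 6.89 and 6.86, and reached 7.80, 7.54 and 7.43 in posterior pools.

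Evx1, a homeobox gene of the proximal streak, read 8.74, 8.86 and 10.03 in anterior pools and 11.92, 11.66 and 11.98 in posterior pools, 6.25-fold higher (adjusted p = 2.89e-04, limma). Mixl1, a homeobox gene of nascent mesoderm and endoderm, read 6.83, 6.92 and 8.09 in anterior pools and 9.63, 9.97 and 9.09 in posterior pools (4.87-fold; adjusted p = 0.00174, limma). For both genes anterior replicate 3 was more than 1 log2 unit above the other anterior pools. The mean over 5 streak markers (T, Wnt3a, Cdx2, Tbx6 and Evx1) was 9.20, 9.46 and 10.34 in the 3 anterior pools and from 11.66 to 12.05 in posterior pools, so the third anterior pool held the highest streak marker level of its group. The part of this in the differences was not tested. Among the ligands, the difference was -2.04 for Fgf17, -1.31 for Fgf8, -1.83 for Wnt5b, -1.33 for Wnt8a and -1.13 for Wnt5a. Fst, which encodes the activin-binding protein follistatin, differed by -1.51, Sp5, a transcription factor and WNT target, by -1.19, and Grsf1, an RNA-binding protein gene, by -1.45. Nodal, a TGF-beta family ligand, had the smallest called difference of the list, -0.58 (adjusted p = 0.0401, limma).

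T, which encodes brachyury and marks the streak and the notochord, missed the threshold. It read 10.33, 10.65 and 11.35 in anterior pools and 12.80, 12.92 and 10.98 in posterior pools, and posterior replicate 3 lay within the anterior range. The difference was -1.45 ± 0.41 (adjusted p = 0.125, limma) with that array and -2.08 (adjusted p = 3.30e-05) without it. Nkx1-2, a homeobox gene of the caudal epiblast, had the same pattern, with -0.89 (adjusted p = 0.316) and, without the array, -1.46 (adjusted p = 6.93e-05, limma). Of the 15 called streak genes, 13 were called whichever array was left out. The call of Cdx4 was lost without anterior Lhx1epiCKO replicate 1 (adjusted p = 0.0784) or 3 (adjusted p = 0.0508), and that of Nodal was lost without any of 11 of the 12 arrays (adjusted p from 0.0501 to 0.182, limma), posterior Lhx1epiCKO replicate 2 being the exception.

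**Figure D2:**
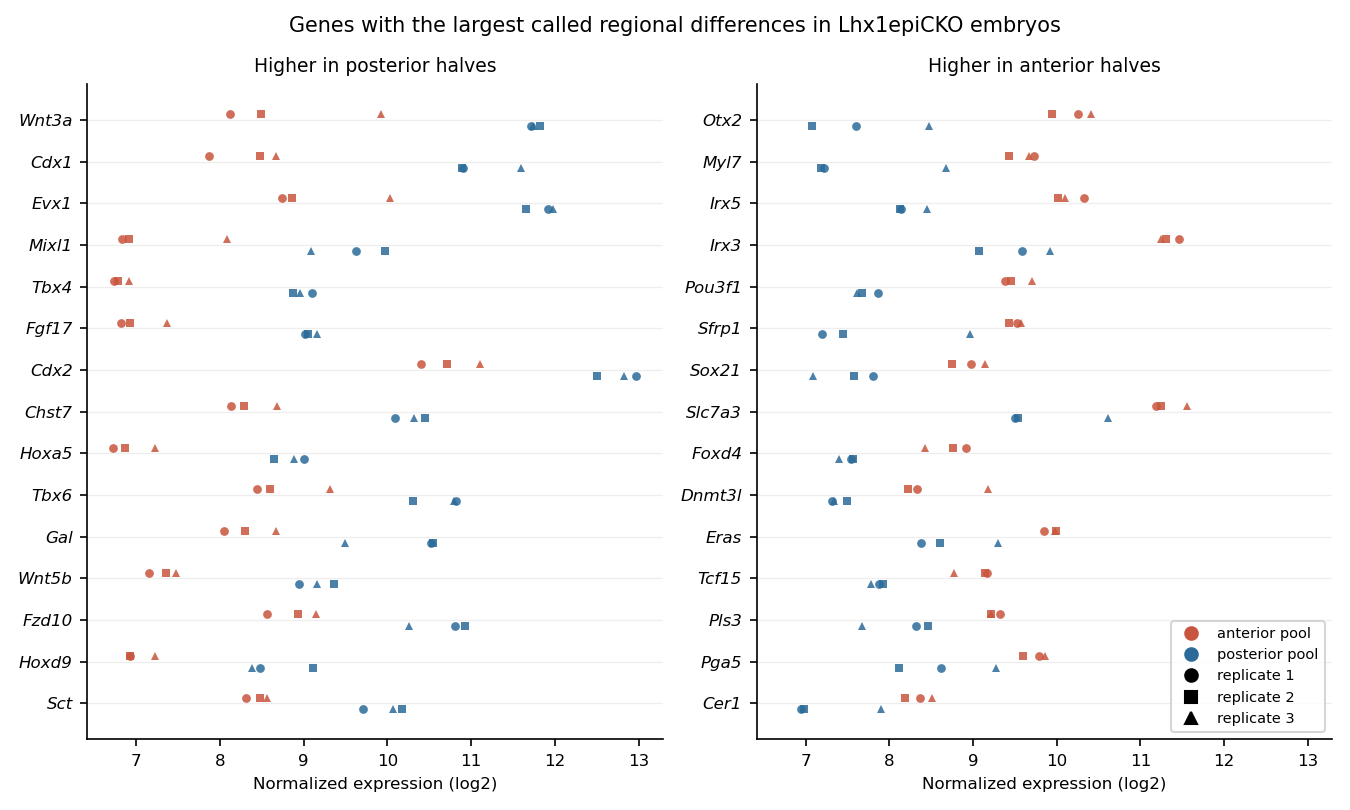
Normalized log2 expression of the 15 genes with the largest called difference in each direction, 1 point per array. Red points are anterior and blue points posterior Lhx1epiCKO pools, and circles, squares and triangles mark replicates 1, 2 and 3. The 2 regions overlap in none of the genes, which was a condition of their choice.

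Other genes among the 15 largest posterior differences were Chst7, a sulfotransferase gene (-1.92), Gal, which encodes the neuropeptide galanin (-1.84), Fzd10, a WNT receptor gene (-1.79), and Sct, which encodes secretin (-1.54). Fzd10 was placed in the neural plate list, where it was 1 of 3 members higher in posterior pools. Sct read 8.31, 8.48 and 8.56 in anterior and 9.71, 10.18 and 10.07 in posterior pools, groups more than 1 log2 unit apart. All 15 of these largest posterior genes were called whichever array was left out. The interferon regulatory factor gene Irf1, which is outside the naming rule and was picked after its values were seen, was called higher in posterior pools on each of its 4 kept probes, by 0.76 to 1.45 on the log2 scale. The calls of its 2 probes with the smaller differences were lost without 4 and 2 of the 12 arrays (adjusted p up to 0.164 and 0.0793).

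To show the sequence next to the start of 2 streak genes with large called differences, the 250 bases before the first listed start are printed from RefSeq on GRCm38.p6, 5′ to 3′ on the gene's strand, for Wnt3a and Evx1. Capitals mark any match, on either strand, to 4 short motifs: CTTTGA (TCF/LEF), TTTATG (CDX), TCACAC (T-box half-site) and TAATCC (OTX and GSC).
Wnt3a (chr11:59290752-59291001, minus strand): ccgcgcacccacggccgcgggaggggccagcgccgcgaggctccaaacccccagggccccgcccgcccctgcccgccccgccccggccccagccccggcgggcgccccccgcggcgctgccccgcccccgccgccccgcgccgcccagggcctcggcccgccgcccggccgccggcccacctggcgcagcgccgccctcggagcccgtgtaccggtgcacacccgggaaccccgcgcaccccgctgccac
Evx1 (chr6:52313248-52313497, plus strand): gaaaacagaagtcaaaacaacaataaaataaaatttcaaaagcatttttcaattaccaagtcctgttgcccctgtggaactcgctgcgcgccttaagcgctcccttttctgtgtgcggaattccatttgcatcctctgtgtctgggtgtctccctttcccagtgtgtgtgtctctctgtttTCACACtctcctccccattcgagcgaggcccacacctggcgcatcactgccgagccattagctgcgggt
The Evx1 window holds 1 T-box half-site and the Wnt3a window holds none of the 4 motifs. A window was found for 89 of the 124 genes called higher in posterior pools. Of these, 8.99% held CTTTGA, 6.74% TTTATG, 13.5% TCACAC and 2.25% TAATCC, beside 14.1%, 11.1%, 12.2% and 6.38% of 27025 windows of the same length in the table. These are counts of letters in short windows and say nothing of binding.

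Hox genes, whose order along the chromosome follows their order along the body axis, were likewise higher in posterior pools where they were called. Of 21 measured Hox genes, of 37 on the array, 11 were called higher in posterior pools and 0 in anterior pools, and the median difference was -0.65. Hoxa5 read 6.73, 6.86 and 7.22 in anterior pools, where 2 of 3 arrays were above background, and 9.0, 8.64 and 8.88 in posterior pools. This 3.74-fold difference was the largest of the group (adjusted p = 1.24e-04, limma). Hoxb1, of the most anterior paralog group, was already bright in anterior pools, at 9.20, 9.67 and 9.59, and read 11.34, 11.12 and 10.46 in posterior pools (-1.49 by its brightest probe; adjusted p = 0.00492, limma). Hoxb7 differed by -1.25, Hoxd4 by -1.06, Hoxb6 by -0.98, Hoxd8 by -0.89, Hoxa2 by -0.76 and Hoxb4 by -0.57. Hoxd9, the most posterior paralog called, read 6.82, 7.11 and 7.14 in anterior and 8.70, 9.06 and 8.04 in posterior pools by its brightest probe (-1.58), and its other called probe gave -1.63.

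Hoxc6 was above background on no anterior Lhx1epiCKO array and was at least 1.61-fold higher in posterior pools, taking the lowest detected signal as the bound (log2 means 6.61 and 7.48; adjusted p = 0.0371, limma). The filter kept it only through the posterior arrays, so its p sets signal against background readings and adds no support. Hoxc10 (0.01), Hoxa13 (0.19) and Hoxc4 (-0.04) lay near 0 and were not called. Of the 11 called Hox genes, 7 were called whichever array was left out. Among the calls lost were Hoxb4 (lost without 3 of the 12 arrays, adjusted p up to 0.118), Hoxc6 (without 9, up to 0.178) and Hoxd8 (without 9, up to 0.179), each with its highest value without anterior Lhx1epiCKO replicate 1 (limma). Without posterior Lhx1epiCKO replicate 3, 13 Hox genes were called.

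**Figure D3:**
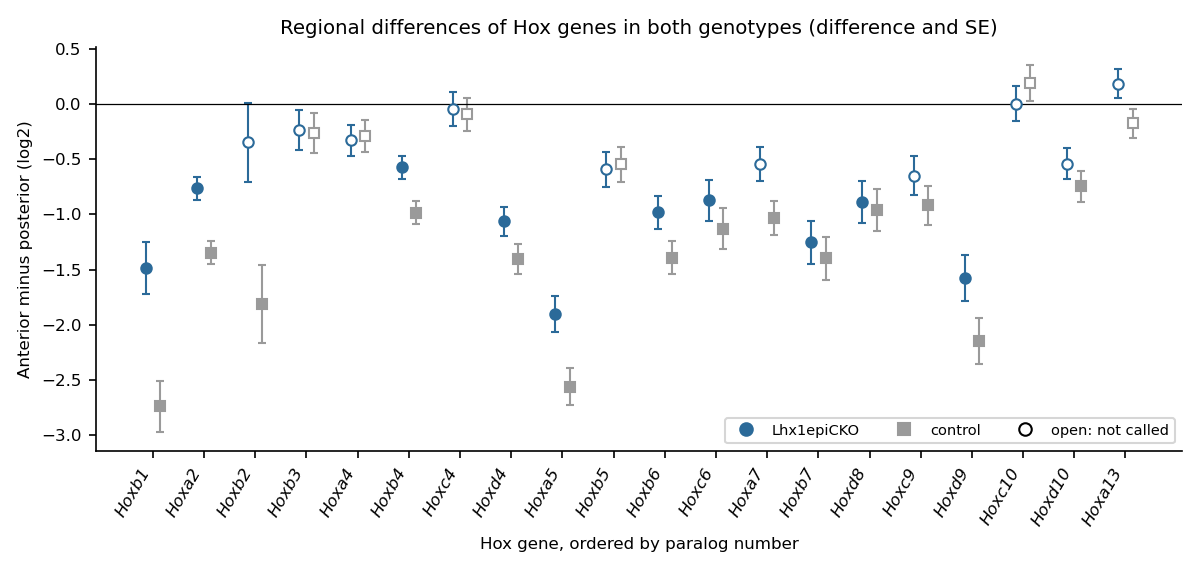
Anterior minus posterior difference (log2) of the measured Hox genes drawn, in order of paralog number, with its SE (n = 3 and 3 pools). The SE comes from the spread shared by all 12 arrays, so for each gene both genotypes have bars of equal length. Blue circles are Lhx1epiCKO and grey squares control embryos, filled where called; all Hox genes called in Lhx1epiCKO embryos lie below 0, higher in posterior pools.

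Called genes of the presomitic mesoderm were higher in posterior pools, while 2 genes of the paraxial mesoderm list were higher in anterior pools. Of 15 measured members, 5 were called toward the posterior and 2 toward the anterior, with a median of -0.43. Tbx6, a T-box factor that sets presomitic against neural fate, read 8.44, 8.60 and 9.31 in anterior pools and 10.81, 10.30 and 10.79 in posterior pools (3.61-fold; adjusted p = 5.96e-04, limma). Dll1, a Notch ligand gene, differed by -1.37, and Nrarp, a Notch target gene counted in the node list, by -0.78. Snai1, a repressor of E-cadherin that acts as cells leave the streak, differed by -0.92, Aldh1a2, the enzyme that makes retinoic acid in the early mesoderm, by -1.09, and Pcdh19, a protocadherin gene, by -0.70. Tcf15, which encodes paraxis, a factor of the somites, had the opposite direction, at 9.17, 9.14 and 8.77 in anterior and 7.88, 7.92 and 7.77 in posterior pools (1.17 ± 0.20; adjusted p = 0.00771, limma). Foxc2, a forkhead factor of somites and head mesenchyme, differed by 0.62. Both anterior calls were lost without anterior Lhx1epiCKO replicate 1 (adjusted p = 0.0601 and 0.0720), and that array's removal also ended the call of Nrarp (adjusted p = 0.0552). The calls of Aldh1a2 and Pcdh19 were each lost without 3 of the 12 arrays (adjusted p up to 0.0848 and 0.0957, limma): anterior Lhx1epiCKO replicate 1 and posterior Lhx1epiCKO replicate 2 for both, with anterior Lhx1epiCKO replicate 3 for Aldh1a2 and 2 for Pcdh19.

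In the allantois and extraembryonic mesoderm list, 4 of 17 measured genes were higher in posterior pools and 1 in anterior pools. Tbx4, a T-box gene of the allantois, read 6.73, 6.78 and 6.91 in anterior pools, where 1 of 3 arrays was above background, and 9.10, 8.87 and 8.95 in posterior pools. The 4.49-fold difference (adjusted p = 2.95e-04, limma) was called whichever array was left out. Cdx2, named above, and Msx1, a homeobox target of BMP (-0.85), were likewise called each time. Bmp4, the BMP ligand of the extraembryonic tissues and posterior mesoderm, read 10.13, 10.26 and 10.34 against 10.76, 11.35 and 11.41 (-0.93; adjusted p = 0.0180, limma), and this call was lost without any of 4 of the 12 arrays, all from Lhx1epiCKO embryos (anterior replicate 1, 2 or 3 or posterior replicate 2; adjusted p up to 0.118). Of 19 BMP pathway genes, 3 were called, Fst, Bmp4 and Msx1, and the list median of 0.02 was near that of all probes. Snai2, a repressor of epithelial genes, was the member higher in anterior pools (0.83; adjusted p = 0.00688), and lost its call without anterior Lhx1epiCKO replicate 1 (adjusted p = 0.0604, limma).

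Called genes of the FGF list, by their brightest probes, were higher in posterior pools. In that list, 4 of 18 measured genes were called, all in that direction, and the median was -0.32. They were Fgf17, Fgf8, Fgf15 (-1.20) and Etv4, a transcription factor target of FGF (-1.42), and all of these were called whichever array was left out. Fgf17 read 6.81, 6.93 and 7.36 in anterior pools and 9.01, 9.05 and 9.16 in posterior pools, and its 4.12-fold difference had an adjusted p of 2.92e-05 (limma). The receptor gene Fgfr2 lay on the other side, with mean levels of 11.18 in anterior and 10.43 in posterior pools by its brightest probe (0.76; adjusted p = 0.0556, not called), and a dimmer probe of it was called at 0.64 (adjusted p = 0.0175, limma), a call lost without anterior Lhx1epiCKO replicate 1 or 2 (adjusted p = 0.105 and 0.109). Counting any probe of a gene, 6 FGF genes were called toward the posterior and 1 toward the anterior. In the retinoic acid list, 4 of 12 genes were called, all higher in posterior pools, among them Aldh1a2, Rxrg, a retinoid receptor gene (-0.55), and Crabp1, a retinoic acid-binding protein gene (-0.68). None of these 4 calls survived the loss of every single array, with adjusted p up to 0.216 (Rxrg without anterior Lhx1epiCKO replicate 1).

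WNT antagonists and feedback genes were called in both directions, and the list median was -0.02. Of 20 measured, 4 were higher in posterior pools: Notum, which encodes a WNT deacylase (-1.17), Axin2, a feedback inhibitor of beta-catenin (-0.77), Dkk4, a secreted WNT antagonist gene (-0.73), and Lef1, a transcription factor of the pathway (-0.55). Dkk4 was not above background on all 6 Lhx1epiCKO arrays. The 3 members higher in anterior pools were Sfrp1, a secreted WNT-binding protein gene (1.64), Cer1, a secreted antagonist of WNT, BMP and NODAL (1.07), and Shisa2, which holds WNT and FGF receptors back from the cell surface (0.71). Sfrp1 read 9.53, 9.42 and 9.58 in anterior pools and 7.20, 7.45 and 8.96 in posterior pools, where replicate 3 was far above the others. Its brightest probe was called at an adjusted p of 0.0380 and lost the call without any 1 of 11 of the 12 arrays (adjusted p up to 0.167), and without posterior Lhx1epiCKO replicate 3 the difference was 2.19 (adjusted p = 7.42e-06, limma). Its other called probe differed by 1.15 and was called whichever array was left out. Each of the other calls in this list was lost without at least 1 array, from 2 of 12 for Axin2 (anterior Lhx1epiCKO replicate 1 or 2, adjusted p up to 0.109) to 10 for Notum and for Shisa2 (adjusted p up to 0.163 and 0.261).

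The largest called difference toward the anterior was that of Otx2, a gene of the anterior neural plate list. Of 29 measured genes, of 45 on the array, 8 were called higher in anterior pools and 3 higher in posterior pools, and the list median was 0.32. Otx2, a homeobox factor of the forebrain and midbrain, read 10.25, 9.94 and 10.41 in anterior pools and 7.60, 7.08 and 8.48 in posterior pools. Its anterior level was 5.58-fold the posterior one (2.48 ± 0.30; adjusted p = 9.0e-04, limma), and 2.86 on the log2 scale without posterior Lhx1epiCKO replicate 3, the highest of the posterior pools. Irx3 and Irx5 are neighbouring Iroquois homeobox genes of the neural plate. Irx5 read 10.33, 10.02 and 10.10 against 8.14, 8.13 and 8.45 (3.76-fold; adjusted p = 2.06e-04), and Irx3 11.46, 11.30 and 11.25 against 9.58, 9.07 and 9.92 (3.52-fold; adjusted p = 0.00303, limma). Pou3f1, a POU factor of epiblast and early neural tissue, read 9.38, 9.45 and 9.70 against 7.87, 7.67 and 7.61 and differed 3.47-fold (adjusted p = 4.14e-04, limma). Sox21, a neural SOX gene, differed by 1.47, Foxd4, a forkhead gene of the early neural ectoderm, by 1.20, and Shisa2 by 0.71.

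The 3 members higher in posterior pools were Fzd10, Gbx2, a homeobox gene of the hindbrain and caudal ectoderm (-0.90), and Crabp1 (-0.68). Gbx2, the counterpart of Otx2 at the midbrain and hindbrain boundary, was bright in both regions, at 12.04, 12.31 and 12.06 in anterior pools and 13.13, 12.99 and 12.99 in posterior pools. The defining forebrain genes Six3, Lhx2 and Hesx1 were not above background on any of the 6 arrays, where they read from 6.35 to 6.69. Their control readings were not compared, so this says nothing of a difference between genotypes. Sox2, a gene of neural and pluripotent cells, read 7.5, 7.56 and 7.5 against 7.24, 7.33 and 7.01 and was not called (0.32; adjusted p = 0.204, limma). Of the 8 anterior calls, 6 were made whichever array was left out, the exceptions being Sfrp1, by its brightest probe, and Shisa2. Of the 3 posterior calls that of Fzd10 was, while that of Gbx2 was lost without 5 of the 12 arrays and that of Crabp1 without 9 (adjusted p up to 0.163 and 0.188). Without posterior Lhx1epiCKO replicate 3, 11 members were higher in anterior pools and 2 in posterior pools.

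The 250 bases before the start of Otx2 and Irx3, the genes of this list with the largest called differences that have an entry, are printed in the same way, to set them beside the posterior pair.
Otx2 (chr14:48667645-48667894, minus strand): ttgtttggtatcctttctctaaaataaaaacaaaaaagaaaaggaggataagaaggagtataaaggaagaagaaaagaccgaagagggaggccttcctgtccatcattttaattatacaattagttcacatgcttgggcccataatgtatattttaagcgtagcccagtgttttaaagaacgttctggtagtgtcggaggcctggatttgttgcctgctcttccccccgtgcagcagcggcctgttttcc
Irx3 (chr8:91801655-91801904, minus strand): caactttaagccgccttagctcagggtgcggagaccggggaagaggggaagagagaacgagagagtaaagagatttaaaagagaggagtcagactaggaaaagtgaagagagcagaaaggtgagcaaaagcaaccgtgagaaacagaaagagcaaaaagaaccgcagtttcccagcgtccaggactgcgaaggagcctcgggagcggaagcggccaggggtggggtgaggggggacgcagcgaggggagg
Neither window holds any of the 4 motifs. A window was found for 49 of the 66 genes called higher in anterior pools, and 6.12% of them held TAATCC, beside 6.38% of all windows. CTTTGA was held by 8.16%, TTTATG by 6.12% and TCACAC by 16.3% of them, shares near those of the genes called higher in posterior pools.

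Called heart genes were also mostly higher in anterior pools, though Gata5 and Nkx2-5 among them passed the filter only through those pools. Of 21 measured cardiac genes, 5 were called in that direction and 1, Bmp4, in the other, with a median of 0.19. Myl7, which encodes the atrial myosin light chain, read 9.72, 9.43 and 9.67 in anterior pools and 7.22, 7.18 and 8.68 in posterior pools, where replicate 3 was again the highest (3.77-fold; adjusted p = 0.0106, limma). Mef2c, a transcription factor gene of muscle, differed by 0.81, and Myl4, another myosin light chain gene, by 0.76. The cardiac factors Gata5 and Nkx2-5 were not above background on any posterior Lhx1epiCKO array. Gata5 was at least 1.38-fold higher in anterior pools (log2 means 7.32 and 6.55; adjusted p = 0.00312), and Nkx2-5 at least 1.26-fold (means 7.19 and 6.57; adjusted p = 0.0266, limma). The filter kept both only through the anterior arrays, so their p-values set signal against background readings and add no support. The call of Gata5 was made whichever array was left out, which adds no support for the same reason. That of Myl7 was lost without anterior Lhx1epiCKO replicate 1 (limma adjusted p = 0.0667). Those of Mef2c, Nkx2-5 and Myl4 were lost without 4, 5 and 7 of the 12 arrays (limma adjusted p up to 0.193, 0.168 and 0.219, each without that same array).

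In the neural crest and cranial mesenchyme list, 3 of 14 genes were higher in anterior pools, Tbx1, Snai2 and Foxc2, and 1, Msx1, in posterior pools. Tbx1, a T-box gene of the pharyngeal mesoderm, read 7.81, 7.57 and 7.55 in anterior pools and was not above background on any posterior array, at 6.76, 6.44 and 6.69. It was at least 1.72-fold higher in anterior pools (adjusted p = 0.00230, limma), and was called whichever array was left out. The filter kept it only through the anterior arrays, so its p and its repeated calls set signal against background readings and add no support. Other genes among the 15 largest anterior differences were Slc7a3, a cationic amino acid transporter gene (1.45), Eras, a RAS family gene of pluripotent cells (1.18), Pls3, which encodes an actin-bundling plastin (1.10), and Pga5, which encodes a pepsinogen (1.08). Of the 15 largest anterior genes, 8 were called whichever array was left out; the others were Myl7, Sfrp1, Tcf15, Cer1, Dnmt3l, described below, Slc7a3 (lost without anterior Lhx1epiCKO replicate 3, adjusted p = 0.0663, or posterior Lhx1epiCKO replicate 2, 0.0540) and Pga5 (lost without 5 of the 12 arrays, adjusted p up to 0.137).

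LHX1 itself acts in the anterior mesendoderm. Of 12 measured genes of that list, 2 were called, Otx2 and Cer1, both higher in anterior pools, and the list median was 0.19 in Lhx1epiCKO embryos. Cer1 read 8.36, 8.18 and 8.50 in anterior pools and 6.95, 6.98 and 7.90 in posterior pools (1.07 ± 0.21; adjusted p = 0.0248, limma). Its call was lost without any of 5 of the 6 Lhx1epiCKO arrays (adjusted p up to 0.122), and without posterior Lhx1epiCKO replicate 3, the highest posterior pool, the difference was 1.38 (adjusted p = 2.26e-05). Shh, the hedgehog ligand of the midline, differed by 0.20 (adjusted p = 0.652), Hhex, a homeobox gene of anterior endoderm, by 0.39 (adjusted p = 0.118), and Fzd5, a WNT receptor gene, by 0.41 (adjusted p = 0.238, limma), and none of these was called. Without posterior Lhx1epiCKO replicate 3, Hhex was called as well (0.46; adjusted p = 0.0393, limma), which raised the calls of this list to 3 and those of the endoderm list to 2. Lhx1 itself differed by -0.25 (adjusted p = 0.775, limma). Of 24 endoderm genes only Otx2, which is also in that list, was called. In the node and notochord list, 3 of 15 genes were called, all higher in posterior pools, and these were Fgf8, Nodal and Nrarp. Among the 13 LIM-domain and cofactor genes Otx2 was the only one called, and the median was 0.00. Without posterior Lhx1epiCKO replicate 3 the median was 0.21 and Lmo2 was also called, at -0.74 (adjusted p = 0.0447, limma).

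**Figure D4:**
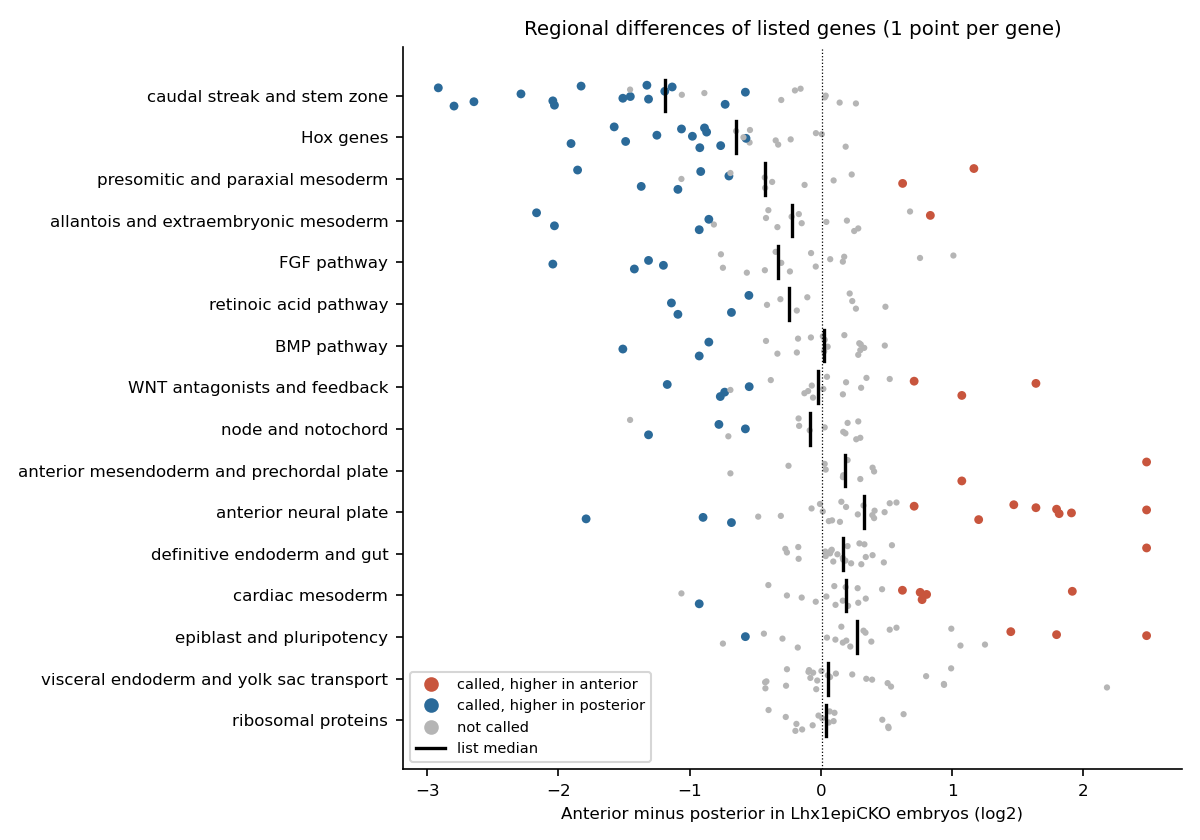
Anterior minus posterior difference (log2) in Lhx1epiCKO embryos of each measured gene in the gene lists drawn, 1 point per gene by its brightest probe; a gene can be in several lists. Red and blue points were called higher in anterior and posterior pools, grey points were not called, black bars are list medians and the dotted line is the median of all probes, 0.01; the caudal streak list has the lowest median, -1.19, of the lists shown, and the anterior neural plate list the highest, 0.32.

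Of 22 epiblast and pluripotency genes, 3 (Otx2, Pou3f1 and Slc7a3) were higher in anterior pools and 1 (Nodal) in posterior pools, with a median of 0.27. Leaving out posterior Lhx1epiCKO replicate 3 gave 7 anterior and 0 posterior calls, the gained genes being Utf1 (1.21), Tcf7l1 (0.94), Zic2 (0.66) and Sall4 (0.44). Dnmt3l, a cofactor of de novo DNA methylation, was also higher in anterior pools (1.20; adjusted p = 0.0276, limma). It read 8.33, 8.23 and 9.18 there, with replicate 3 apart from the others, and 7.31, 7.49 and 7.34 in posterior pools. In the extraembryonic ectoderm list, Elf5 and Esrrb also read highest in that pool, whereas Ascl2 did not (6.84, 6.92 and 6.82). Elf5 read 7.37, 7.11 and 8.41 in anterior pools and Esrrb 7.73, 7.54 and 8.78, and both were above background on no posterior array. Neither was called (adjusted p = 0.330 and 0.143, limma). The mean of the 4 trophoblast markers on the array (Elf5, Ascl2, Prl3d1 and Tpbpa) was 6.82, 6.75 and 7.09 in anterior pools and from 6.62 to 6.69 in posterior pools, with Prl3d1 and Tpbpa not above background on any of the 6 arrays. The part of such tissue in the Dnmt3l difference was not tested. The call of Dnmt3l was lost without 4 of the 12 arrays, anterior Lhx1epiCKO replicate 1 or 3 or posterior Lhx1epiCKO replicate 1 or 2 (adjusted p up to 0.0907).

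Some lists held no called gene by the brightest probes, which at 0.458% and 0.948% of all probes called is no result about these tissues. They were primitive blood and globins (19 genes measured, median -0.02), endothelium (15, 0.16), visceral endoderm and yolk sac transport (25, 0.05), maternal decidua (6, 0.11) and ribosomal proteins (16, 0.04). By a dimmer probe, Igfbp3 of the decidua list was called higher in posterior pools, and lost the call without 6 of the 12 arrays (adjusted p up to 0.206, limma). The blood list (Lmo2, -0.74) and the decidua list (Igfbp3, -0.84) held 1 call each without posterior Lhx1epiCKO replicate 3, both higher in posterior pools. The embryonic globin gene Hbb-bh1 read 9.02, 9.39 and 9.55 in anterior pools and 11.07, 10.06 and 10.12 in posterior pools, which did not overlap, yet its difference of -1.10 ± 0.40 was not called (adjusted p = 0.270, limma). Apoa1, an apolipoprotein gene of the visceral endoderm, read 13.69, 13.65 and 13.70 in anterior pools and 13.60, 13.70 and 7.20 in posterior pools. Its difference of 2.18 ± 1.20 was 0.03 without posterior Lhx1epiCKO replicate 3, the 1 pool in which its level was low. Transthyretin, encoded by Ttr, and apolipoprotein B, encoded by Apob, moved in the same way, from 0.99 and 0.94 to 0.02 and -0.09 without that array. The mean of 7 visceral endoderm markers (Afp, Apoa1, Apob, Ttr, Amn, Cubn and Rbp4) was 9.71 on that array and from 11.11 to 11.36 on the other 5 arrays, while Amn, Afp and Cubn read highest on it. Of the decidual markers Prl8a2, Dcn, Pgr and Des, only Des was above background on all 6 arrays.

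The regional differences in Lhx1epiCKO embryos were set against those in controls, which come from arrays of their own in the same fit. In controls 506 probes (3.31% of those tested) differed between the regions, 224 higher in anterior and 282 higher in posterior pools. Of the 215 Lhx1epiCKO calls, 192 (89.3%) were also called in controls, all in the same direction, and these were 37.9% of the 506 control calls. All but 1 of the 215 had the same sign in controls, the exception being Zc3h14, an RNA-binding protein gene (0.88 in Lhx1epiCKO, -0.10 in controls), which is outside the naming rule and was picked for this. Its call was lost without 4 of the 12 arrays (adjusted p up to 0.135, limma). Over the 506 control calls the median difference, signed by its direction in controls, was 0.74 in controls and 0.51 in Lhx1epiCKO embryos. The calls were chosen in controls, so these 2 medians carry no test. The median standard error of a Lhx1epiCKO difference was 0.14. In the test of the difference itself, no probe (0%) differed between genotypes at an adjusted p under 0.05 in limma. At an unadjusted p under 0.05, 494 of the 15299 probes did. This is a smaller share than the 0.05 that the threshold lets pass where nothing differs, so the count is no set of differing probes. 1 probe was called when array weights were used or when anterior control replicate 3 was left out, 2 with a trended, robust variance, and 3 when posterior Lhx1epiCKO replicate 3 was left out. Without the library labelled posterior control replicate 2 the count was 0 in limma, and the count of control calls was 286. That count also fell without other control arrays, to between 275 and 354, and was 875 without posterior Lhx1epiCKO replicate 3.

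The smallest p for the difference between genotypes belonged to Fzd5 and Shisa2, whose anterior levels were lower in Lhx1epiCKO than in control embryos in every pool. Fzd5 read 8.80, 8.59 and 8.95 in anterior Lhx1epiCKO pools and 10.37, 10.20 and 9.85 in anterior control pools, while posterior pools read 8.33, 8.33 and 8.46 and 8.41, 8.20 and 8.18. Its regional difference was 0.41 in Lhx1epiCKO and 1.88 in control embryos, a difference of -1.47 ± 0.20 that missed the threshold (adjusted p = 0.0542, limma). Shisa2 read 8.62, 8.26 and 8.25 in anterior Lhx1epiCKO pools and 10.11, 9.75 and 9.70 in anterior control pools, and 7.58, 7.51 and 7.90 and 7.39, 7.72 and 7.58 in posterior pools. Its regional difference was 0.71 in Lhx1epiCKO embryos beside 2.29 in controls (difference -1.58 ± 0.22; adjusted p = 0.0542, limma). Without posterior Lhx1epiCKO replicate 3 both passed the threshold (adjusted p = 0.0189), and without the library labelled posterior control replicate 2 neither did (adjusted p = 0.223). Across all settings the adjusted p of Fzd5 ran from 0.0170 to 0.454 and that of Shisa2 from 0.0185 to 0.527, the last with the replicate block. With the mean of all its probes the difference of Fzd5 was -0.82 (adjusted p = 0.454, limma). Cer1 (-1.19 ± 0.30; adjusted p = 0.984), Cadps2, a gene of vesicle release (-0.87 ± 0.19; adjusted p = 0.757), and Grasp (-0.61 ± 0.14; adjusted p = 0.974, limma) followed in the same direction.

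In the other direction, some genes were more nearly even between the regions in Lhx1epiCKO than in control embryos, and none passed the test. In controls these genes read higher in posterior than in anterior pools. Hoxb1, by a dimmer probe than the one given above, differed by -1.21 in Lhx1epiCKO and -3.01 in control embryos, Wnt8a by -1.33 and -2.47, and Gna14, a G protein subunit gene, by -0.81 and -1.71 (adjusted p of each difference = 0.465, limma). Gna14 was also called without posterior Lhx1epiCKO replicate 3 (adjusted p = 0.0461). Meox1, a homeobox gene of the somites, read 8.70, 8.54 and 8.23 in anterior and 8.32, 8.33 and 8.53 in posterior Lhx1epiCKO pools, which overlapped. In controls it read 7.81, 6.94 and 7.32 in anterior and 8.67, 9.44 and 8.69 in posterior pools, a difference of -1.58 (adjusted p = 0.00151; difference between genotypes 1.68 ± 0.33, adjusted p = 0.465, limma).

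**Figure D5:**
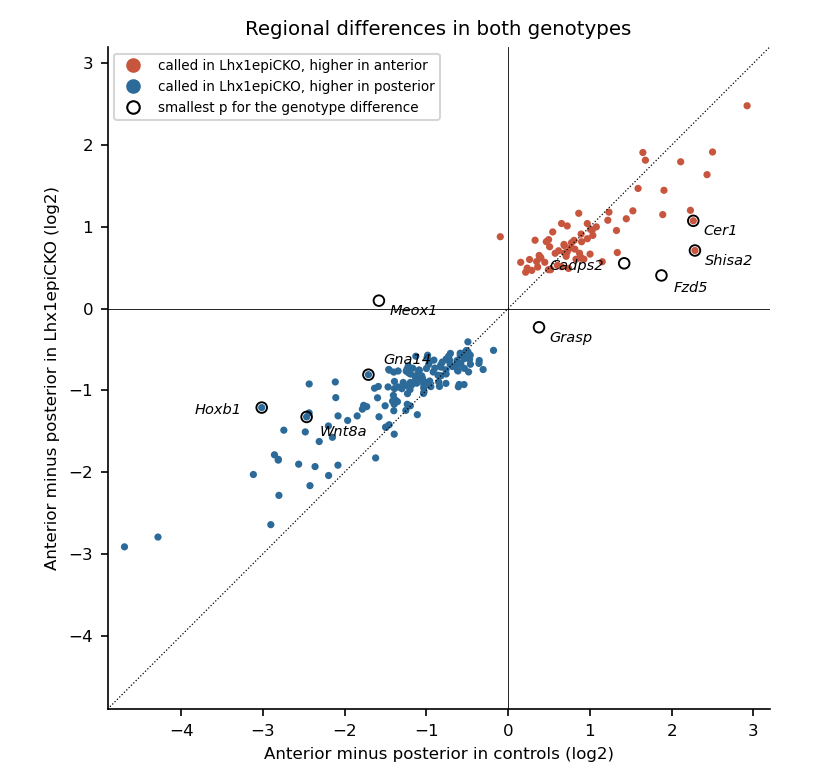
Anterior minus posterior difference (log2) in Lhx1epiCKO embryos against that in controls, for the 215 probes called in Lhx1epiCKO embryos (red higher in anterior, blue higher in posterior pools) and, circled in black, probes of smallest p for the difference between genotypes. The dotted line marks equal differences; none of the circled probes passed the test of that difference.

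The regional differences of leading streak genes were set beside those in controls. Wnt3a differed by -2.92 in Lhx1epiCKO and -4.69 in control embryos, Cdx1 by -2.80 and -4.28, Cdx2 by -2.03 and -3.12, and Evx1 by -2.64 and -2.90, and none of these pairs differed by the test. In the same order, the anterior means were 8.84, 8.34, 10.74 and 9.21 in Lhx1epiCKO and 7.04, 6.78, 9.56 and 8.67 in control embryos. Posterior means were 11.76, 11.13, 12.77 and 11.85 beside 11.74, 11.07, 12.68 and 11.58. Cdx1 was above background on 1 of 3 anterior control arrays. Levels within 1 region were not tested between genotypes. The median of the streak list was -1.19 in Lhx1epiCKO and -1.50 in control embryos, that of the Hox list -0.65 and -1.03, that of the anterior neural plate list 0.32 and 0.55, and that of the anterior mesendoderm list 0.19 and 0.45. In the cardiac list the order was turned, with 0.19 and 0.06. Of the 23 probes called in Lhx1epiCKO embryos and not in controls, 16 were higher in anterior pools. They included the cardiac genes Nkx2-5 (0.62 in Lhx1epiCKO, 0.39 in controls) and Myl4 (0.76, 0.51), and Foxc2 (0.62, 0.40), and on the posterior side Crabp1 (-0.68, -0.46). No probe of the 23 differed between genotypes by the test (lowest adjusted p = 0.984).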

How the data were processed

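RNA from pools of 5 embryo parts was measured on 12 arrays. The deposited values are log2 intensities that the authors normalized, and the submitters' processing notes name GenomeStudio and limma. The background correction and normalization method are not given in the sources used here. A deposited detection p-value accompanies each value, and the 2 deposited tables differed by at most 5e-09.

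Of 30344 probes, 15299 were kept, those above background (detection p below 0.05) in 3 or more of the 6 Lhx1epiCKO arrays; 15139 of these were named. Probes whose 2 gene names differed (324 in all) were tested but not named. limma 3.58.1 in R 4.3.3 fitted 1 mean per group to all 12 arrays (8 residual and 4.941 prior degrees of freedom), with contrasts for each genotype's anterior minus posterior difference and their difference, and Benjamini-Hochberg adjustment over the 15299 probes. In lists a gene is read by its brightest kept probe. Known changes added to simulated arrays served as a check of the fit. A bound written "at least" takes the lowest detected signal of the group below background. The number of arrays limits the precision.

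The genes named are Lhx1, the 15 largest called differences each way, up to 5 members of smallest p per list (with the called members), and the 5 probes of smallest p each way for the genotype difference. The 15 largest were taken among called probes whose 2 regions did not overlap. The members and the 26 lists were chosen with earlier results of these data known. Alternatives covered the filter, scaling, variance model, probe choice, replicate block and the removal of each array, and fits without the 2 arrays that stood apart. Some results of these lists are not reported here.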

Additional observations from a re-analysis of the deposited data

How the results depend on the processing

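No called probe changed sign under any of the 25 alternatives, and 11 anterior and 43 posterior calls were made under every one of them. Fitting the 6 Lhx1epiCKO arrays alone gave 14 anterior and 50 posterior calls. Keeping only probes above background on all 6 Lhx1epiCKO arrays gave 50 anterior and 132 posterior calls, and 182 of the 215 main calls were among them. Array weights gave 120 anterior calls and 1 call for the difference between genotypes, and a trended, robust variance gave 2 such calls. Leaving out both posterior Lhx1epiCKO replicate 3 and the library labelled posterior control replicate 2 gave 205 anterior calls. Over the fits that left out 1 array, anterior calls ran from 20 to 182, posterior calls from 75 to 201 and calls for the genotype difference from 0 to 3. The cause of these changes was not tested. Fitting the 6 Lhx1epiCKO arrays without posterior replicate 3, an alternative chosen after seeing the data, gave 101 anterior and 146 posterior calls. Among the alternatives of single named genes, 3011 kept their side of the threshold, 173 lost the call and 49 gained it. With the replicate number as a block there were 56 anterior and 121 posterior calls and 0 for the genotype difference in limma. The labels do not say that a number pairs pools, and for that reason the numbers were not taken as pairs in the main fit. Deviations of same-numbered pools correlated at 0.07, 0.25 and 0.08 in Lhx1epiCKO embryos, each pool best with its own number. In controls they correlated at -0.00, -0.05 and 0.03. Whether pools of the same number share embryos is not known. The share of calls toward the anterior, 32.6%, was 47.5% without posterior Lhx1epiCKO replicate 3 and 21.1% without anterior Lhx1epiCKO replicate 1.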

Other observations

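Outside the gene lists, several called genes differed by region in Lhx1epiCKO embryos, all picked after their values were seen. Toward the posterior, Klf5, a Kruppel-like transcription factor gene, differed by -1.19 (anterior minus posterior, log2), Ngfr, a neurotrophin receptor gene, by -0.92, Epha1, an ephrin receptor gene, by -1.32, and Sall3, a zinc-finger gene, by -0.82. Toward the anterior, Meis1, a TALE homeobox gene, differed by 0.94, Tcf21, a bHLH gene of mesoderm, by 0.84, Capn6, a calpain gene, by 1.04, and Elavl3, a neuronal RNA-binding protein gene, by 0.90. The call of Meis1 was lost without 3 of the 12 arrays (anterior Lhx1epiCKO replicate 1 or 2 or posterior Lhx1epiCKO replicate 2, limma adjusted p up to 0.108). Those of Tcf21 and Epha1 were lost without anterior Lhx1epiCKO replicate 1 or 2 (adjusted p up to 0.0906 and 0.0684).

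Xist, the RNA of the inactive X chromosome, read 8.39, 6.57 and 8.65 in anterior and 8.24, 6.71 and 9.06 in posterior Lhx1epiCKO pools by its brightest probe, so that same-numbered pools were alike. In controls it read 9.90, 10.47 and 10.28 in anterior and 10.08, 7.72 and 9.83 in posterior pools. Selenoh, by its brightest probe, read 14.26, 14.16 and 14.24 in anterior and 13.81, 14.30 and 6.21 in posterior Lhx1epiCKO pools, and its uncalled difference of 2.78 was 0.16 without posterior Lhx1epiCKO replicate 3. Its other kept probe read 13.37, 13.29 and 13.38 in anterior and 13.29, 13.46 and 11.64 in posterior Lhx1epiCKO pools. The difference by that probe was 0.55, and it was not called.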
